A study of Mus musculus with 8 samples.

Results

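Small nucleolar RNAs (snoRNAs) are short noncoding RNAs that guide the chemical modification and processing of ribosomal RNA in the nucleolus. H/ACA snoRNAs, named Snora in the mouse, guide pseudouridylation with the proteins Dkc1, Nhp2, Nop10 and Gar1. C/D snoRNAs, named Snord, guide 2′-O-methylation with Fbl, Nop56, Nop58 and Snu13. Most mammalian snoRNAs are cut from introns of longer genes, many of which encode ribosomal or nucleolar proteins, while a few have promoters of their own. The genes described here are those for which an array feature (a transcript cluster) carries a single gene symbol that starts with Snora or Snord followed by a digit, with the brightest cluster standing for a symbol that has more than 1. This rule used the annotation and the signal averaged over all arrays, not the difference between genotypes. The gene set itself was chosen with earlier results of these data known. The rule gave 62 of 30142 genes with a cluster of 1 symbol, 18 H/ACA and 44 C/D genes on 19 chromosomes. Their annotated lengths in RefSeq were 56 to 205 bases for H/ACA (median 120.5) and 28 to 221 for C/D genes (median 68). Another 42 clusters that list a snoRNA gene together with other symbols were left out.

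RNA of ascending aorta came from male mice aged 10 weeks, of C57BL/6J background and bred from parents heterozygous for the mgR allele of Fbn1. The 2 groups were Fbn1mgR/mgR mice, homozygous for this allele (arrays mgR611, mgR612, mgR613 and mgR614), and wild-type mice without it (arrays WT675, WT676, WT742 and WT744), with 4 arrays each and no treatment named. Fbn1 encodes the microfibril protein fibrillin-1, and mgR is a hypomorphic allele carried in every cell, which models severe Marfan syndrome. Whether each array holds a different mouse is not stated in the labels; p-values therefore reflect the spread among these arrays alone, and part of it may be technical.

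All values are log2 signals of Affymetrix Clariom D arrays as the authors deposited them, and a difference is the Fbn1mgR/mgR mean minus the wild-type mean on that scale. The median signal per array ran from 3.95 to 4.07, and the number of arrays limits the precision. Over the 32957 clusters tested, those with a mean signal above 4.01, the median difference was -0.02, the median pooled SD within a genotype 0.22 and the median standard error of a difference 0.15. A dim limit of 4.11 was taken from 1228 clusters of olfactory receptors, genes of the nasal epithelium, 95% of which had mean signals at or below it. Markers of smooth muscle, such as Myh11 and Acta2, had mean signals of 13.2 to 14.5 on the 8 arrays. The mean over 7 macrophage markers was 11.4 ± 0.40 in the mutant and 8.94 ± 0.21 in the wild-type arrays (SD, n = 4 each), and 6 of the 7 were called higher. The 4 brown fat markers stood apart on mgR614 (11.1) and WT676 (11.6), against 5.74 to 8.45 on the other arrays. The transcript of Fbn1 was not analysed here. In whole tissue, fewer cells of a type and less RNA per cell cannot be told apart.

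The snoRNA sequences themselves are not in the references used here. Since most of these RNAs are made inside longer transcripts, the start regions of genes that span them are shown for some of the members with the smallest p-values. Windows were made only for genes with a single annotated start, and Rpl23a, which spans Snord42a and Snord4a, has no window. Each window holds the 60 bases before and the 20 bases after the annotated start, from RefSeq's GRCm38.p6 table, 5′ to 3′ on the gene's own strand. Within 25 bases of the start, capitals mark a C followed by at least 5 letters that are each C or T, the kind of pyrimidine tract with which mRNAs of ribosomal proteins usually start.
Rpl39, spanning Snora69 (chrX:37085203-37085282, minus strand): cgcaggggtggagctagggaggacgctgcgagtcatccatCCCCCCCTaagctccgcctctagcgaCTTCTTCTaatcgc
2410006H16Rik, spanning Snord49a and Snord49b (chr11:62602817-62602896, plus strand): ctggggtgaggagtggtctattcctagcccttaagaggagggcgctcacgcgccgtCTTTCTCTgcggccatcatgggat
Ncl, spanning Snora75 and Snord82 (chr1:86359436-86359515, minus strand): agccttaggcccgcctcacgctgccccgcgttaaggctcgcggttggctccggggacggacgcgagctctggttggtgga
Nop58, spanning Snord11 and Snord70 (chr1:59684946-59685025, plus strand): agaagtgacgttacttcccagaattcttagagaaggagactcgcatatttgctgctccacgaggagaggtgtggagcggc
Snx5, spanning Snord17 (chr2:144270553-144270632, minus strand): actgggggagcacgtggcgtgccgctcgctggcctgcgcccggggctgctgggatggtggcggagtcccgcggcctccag
Rpl39 has 2 such tracts and 2410006H16Rik has 1, while Ncl, Nop58 and Snx5 have none within 25 bases of the start. Letters farther upstream were not searched and stay in lower case. Within 25 bases on either side of the start, a tract on the transcript strand was found in 24 of 49 promoters of spanning genes (49.0%, from 46 of 59 genes) and in 11484 of all 32851 promoters (35.0%). On the opposite strand it was found in 14 (28.6%) and 12703 (38.7%). A match is a description of these letters, not of use by a factor.

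The comparison asked which snoRNA genes differ in signal between mutant and wild-type ascending aorta. Of the 62 genes, 46 passed the filter on dim signals, 14 of 18 H/ACA and 32 of 44 C/D genes. The two-sided test of limma with Benjamini-Hochberg adjustment over all 32957 clusters called 2 of the 46 higher in the mutant, Snora75 and Snora69, both H/ACA. It called 0 lower (1 at an unadjusted p under 0.05). Over all tested clusters, 1.40% were called higher and 0.464% lower. Without adjustment, at p under 0.05, 15 of 46 members (32.6%) were higher and 1 (2.17%) was lower, against a background of 7.59% higher and 6.68% lower. All 4 mutant arrays lay above all 4 wild-type arrays in 6 members (13.0%), and below them in none, against 5.26% and 3.65% of tested clusters.

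The differences leaned upward across both classes. They were above 0 in 47 of 62 members (75.8%, against 47.3% of all clusters) and below 0 in 15. The median difference was 0.30 over the 46 tested members and 0.19 over all 62. It was 0.25 for the 14 tested H/ACA genes and 0.34 for the 32 tested C/D genes, against -0.02 for all tested clusters. Of the H/ACA genes tested, 12 had a higher mutant mean and 2 a lower one, and of the C/D genes 23 had a higher and 9 a lower mean. A higher mutant mean was thus found for 85.7% of H/ACA and 71.9% of C/D genes, against 46.1% of all tested clusters. The classes were not tested against each other. At an unadjusted p under 0.05, 13 of 32 C/D genes were higher, as were 2 of 14 H/ACA genes, the 2 that also passed the adjusted threshold. Over all members, tested or not, the median was 0.14 for the 18 H/ACA and 0.25 for the 44 C/D genes.

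**Figure D1:**
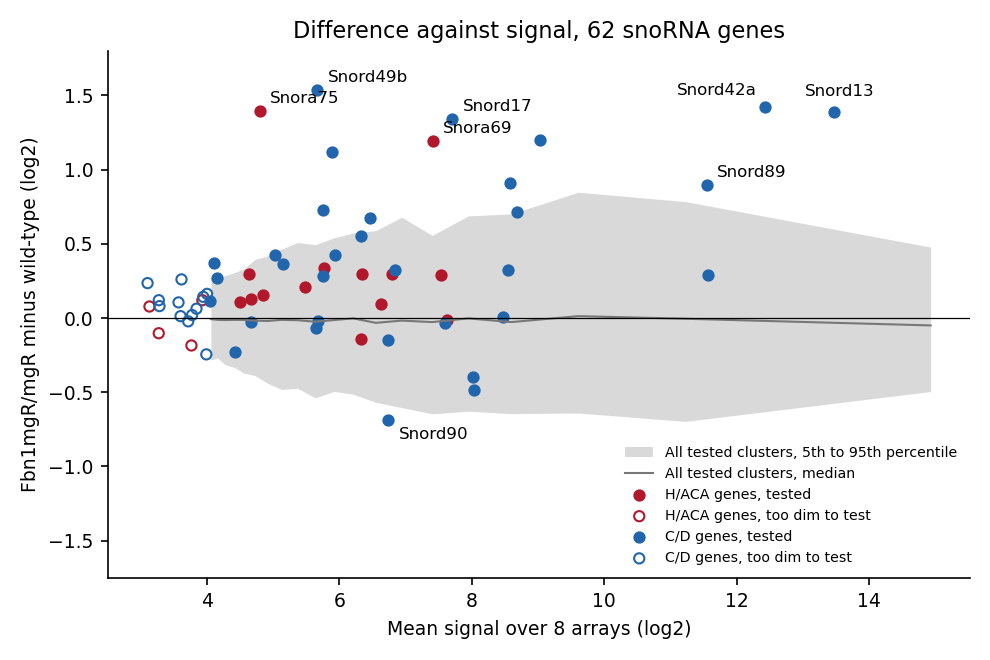
Difference between genotypes (y axis, Fbn1mgR/mgR minus wild-type, log2) against the mean signal over 8 arrays (x axis, log2) for the 62 snoRNA genes. Points are genes, filled where tested and open where too dim to test; the grey band spans the 5th to 95th percentile of all tested clusters in bins of signal. Snord49b (1.53) is the highest point and Snord90 (-0.69) the lowest.

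Averaged over the 46 tested members, the signal was 6.93 on mgR611, 6.84 on mgR612, 7.05 on mgR613 and 7.11 on mgR614, against 6.63 on WT675, 6.40 on WT676, 6.64 on WT742 and 6.68 on WT744. All 4 mutant means lie above all 4 wild-type means, and WT676 is the lowest array. The same holds for the tested members of each class. The H/ACA mean was 5.97 to 6.23 on mutant and 5.53 to 5.92 on wild-type arrays, and the C/D mean 7.21 to 7.49 and 6.78 to 7.02. These means are over members that passed a filter and serve as a description. Over all 18 H/ACA genes, tested or not, the groups overlapped, with mgR612 at 5.396 below WT675 (5.402) and WT744 (5.408). Over all 44 C/D genes they did not, with 6.21 the lowest mutant and 6.09 the highest wild-type mean. Over all tested clusters the mean signal per array ran from 6.61 to 6.69. Without WT676, which is also high in brown fat markers, the median difference was 0.11 for H/ACA and 0.21 for C/D genes.

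Medians of the larger classes of other small RNA genes were nearer 0. The 388 tested genes that RefSeq types as snoRNA but that carry other symbols had a median difference of 0.004, with 1 called higher and 0 lower in limma (unadjusted p under 0.05: 20 higher, 7 lower). The median was -0.05 for 550 snRNA genes, -0.03 for 309 miRNA genes and 0.09 for 21 guide RNA genes of small Cajal bodies. It was 0.33 for the 2 Y RNA genes, 0 of which were called (0 at an unadjusted p under 0.05 in limma). Members were tested more often than the other snoRNA genes (74.2% against 43.4%), of which 536 of 893 lay at or below the dim limit.

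**Figure D2:**
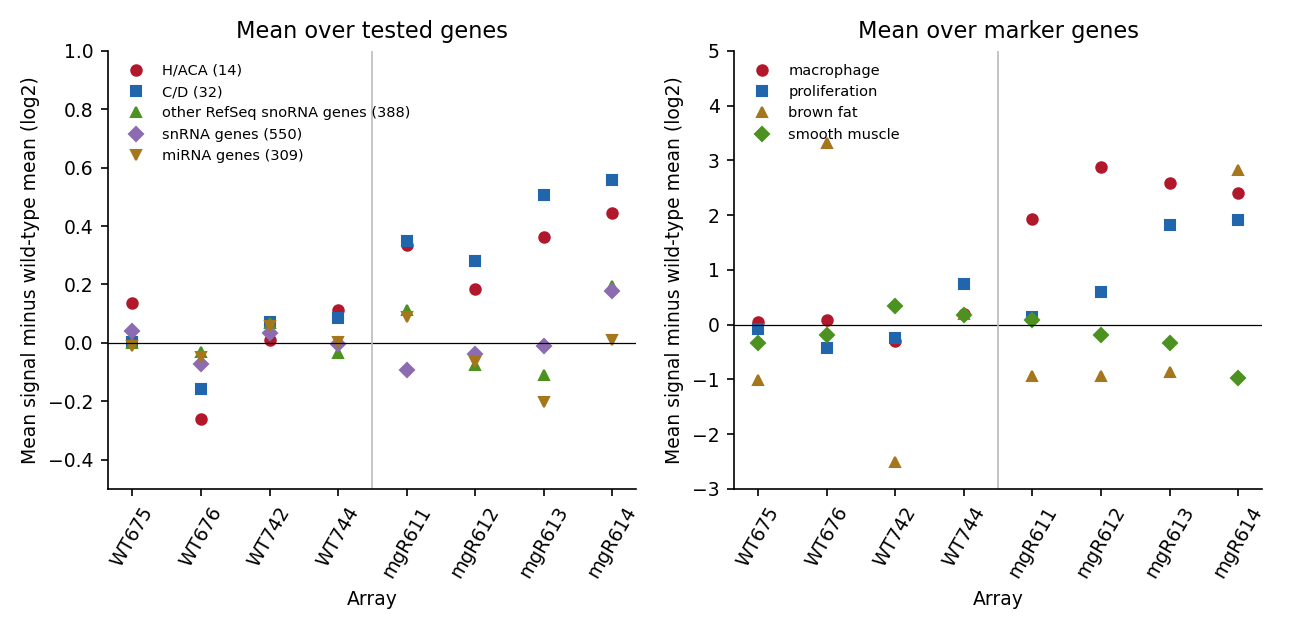
Left, mean signal over tested genes on each array minus the wild-type mean (y axis, log2) for H/ACA and C/D genes and for other small RNA classes, with the number of genes in the legend. Right, the same for means over marker genes of macrophages, proliferation, brown fat and smooth muscle. The x axis gives the 8 arrays, wild-type left of the line; H/ACA, C/D, macrophage marker and proliferation marker means are above 0 on all 4 mutant arrays.

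Among H/ACA genes, Snora75 had the smallest p. Its signal was 5.15, 5.84, 5.21 and 5.77 on mgR611 to mgR614, and 4.0, 3.88, 4.18 and 4.33 on WT675, WT676, WT742 and WT744. The groups were 0.82 apart at their closest. The wild-type mean of 4.10 lies at the dim limit, so the size of the difference is uncertain. Snora75, which sits in an intron of the nucleolin gene Ncl, rose by 1.40 ± 0.18 (SE; adjusted p = 0.00874, limma), or 2.63-fold, with adjusted p from 0.00447 to 0.0794 over the alternatives.

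Snora69, an H/ACA RNA from within the ribosomal protein gene Rpl39, gave 7.73, 8.26, 8.07 and 7.96 on the mutant arrays. The wild-type arrays gave 6.86, 6.85, 6.32 and 7.23. The highest wild-type array, WT744, stayed 0.50 below the lowest mutant array, mgR611. The rise was 1.19 ± 0.20 (SE; adjusted p = 0.0249, limma), or 2.28-fold, with adjusted p from 0.0128 to 0.154 over the alternatives. This call was lost when mgR612, mgR613, mgR614, WT675 or WT676 was left out, with adjusted p of 0.0623, 0.0758, 0.0678, 0.0745 and 0.0682 in limma. Without both mgR614 and WT676, the arrays highest in brown fat markers, neither gene passed (adjusted p = 0.0794 for Snora75 and 0.154 for Snora69 in limma), at differences of 1.23 and 1.22.

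The other H/ACA genes showed smaller differences than these. Snora68 differed by 0.30 ± 0.16 (SE; limma adjusted p = 0.462). Snora73b, 1 of 2 copies of U17 within Snhg3, which acts in early cleavage of the ribosomal RNA precursor, differed by 0.34 ± 0.22 (SE; adjusted p = 0.561, limma), and its copy Snora73a by 0.16. Snora73a and Snora73b are close copies, so their signals may not be separate. Snora62, within the ribosomal protein gene Rpsa, differed by 0.30 (limma adjusted p = 0.576). The brightest H/ACA genes included Snora41 (-0.02), Snora31 (0.29), Snora30 (0.30) and Snora21 (0.10), with limma adjusted p between 0.619 and 0.991. The signs for Snora41 and Snora21 turned when single arrays were left out.

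Among C/D genes, the 4 with the smallest p separated the genotypes but missed the adjusted threshold. Snord49b, within the noncoding gene 2410006H16Rik, gave 6.31, 5.56, 6.74 and 7.10 on the mutant and 5.13, 4.70, 5.20 and 4.55 on the wild-type arrays. Its lowest mutant array, mgR612, was 0.36 above the highest wild-type array. The difference was 1.53 ± 0.31 (SE; limma adjusted p = 0.0507, from 0.0154 to 0.225 over the alternatives), and without mgR612 it passed at 1.82 (limma adjusted p = 0.0154).

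Snord42a, within the ribosomal protein gene Rpl23a, gave 13.73, 12.57, 13.32 and 12.92 on the mutant arrays and 11.42, 12.20, 12.07 and 11.17 on the wild-type arrays. The groups were 0.37 apart at their closest, at a difference of 1.42 ± 0.31 (SE; limma adjusted p = 0.0603). Snord17, a long C/D RNA within the sorting nexin gene Snx5, gave 8.06, 8.10, 8.25 and 9.08 against 7.66, 7.04, 7.02 and 6.42. Its mgR614 and WT744 signals were the extremes, and the difference was 1.34 ± 0.30 (SE; limma adjusted p = 0.0706). Snord89 gave 11.80, 11.70, 11.84 and 12.64 against 11.31, 11.37, 11.00 and 10.72, with mgR614 the highest. It differed by 0.90 ± 0.24 (SE; limma adjusted p = 0.118).

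In the next 3 genes the groups overlapped through 1 or more arrays. Snord70, within Nop58, gave 6.52, 6.97, 6.69 and 5.61 on the mutant and 4.84, 5.82, 5.61 and 5.06 on the wild-type arrays, where mgR614 fell among the wild-type values. It differed by 1.12 ± 0.32 (SE; limma adjusted p = 0.147). Snord4a, the second gene within Rpl23a, gave 9.57, 9.90, 9.33 and 9.75 against 9.43, 7.40, 8.17 and 8.75. WT675 lay among its mutant arrays, and the difference was 1.20 ± 0.38 (SE; limma adjusted p = 0.195).

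Snord13 (U13) is transcribed from its own gene and acts on the small subunit ribosomal RNA, and no gene spans it in the table used. It gave 13.54, 13.40, 15.04 and 14.66 on the mutant and 13.64, 12.64, 12.46 and 12.36 on the wild-type arrays. The arrays mgR613 and mgR614 were well above all others, while WT675 reached the level of mgR611. The difference was 1.39 ± 0.42 (SE; limma adjusted p = 0.175), and its second cluster gave 1.40 (limma adjusted p = 0.160). Snord118 (U8), the other independently transcribed RNA, which acts in processing of the large subunit ribosomal RNAs, differed by 0.43 ± 0.27 (SE; limma adjusted p = 0.553). Its second cluster, too dim to test, gave -0.12. Snord123, within the noncoding gene Snhg18, was bright on all arrays (10.85 to 12.61) and differed by 0.29 ± 0.36 (SE; limma adjusted p = 0.801).

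The mean of 3 tested proliferation markers was also highest on mgR613 (8.21) and mgR614 (8.30), against 6.52 and 6.99 on mgR611 and mgR612 and 5.95 to 7.13 on the wild-type arrays. None of the 3 was called. The macrophage marker mean was highest on mgR612 (11.8). The part of either cell population in the snoRNA differences was not tested.

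**Figure D3:**
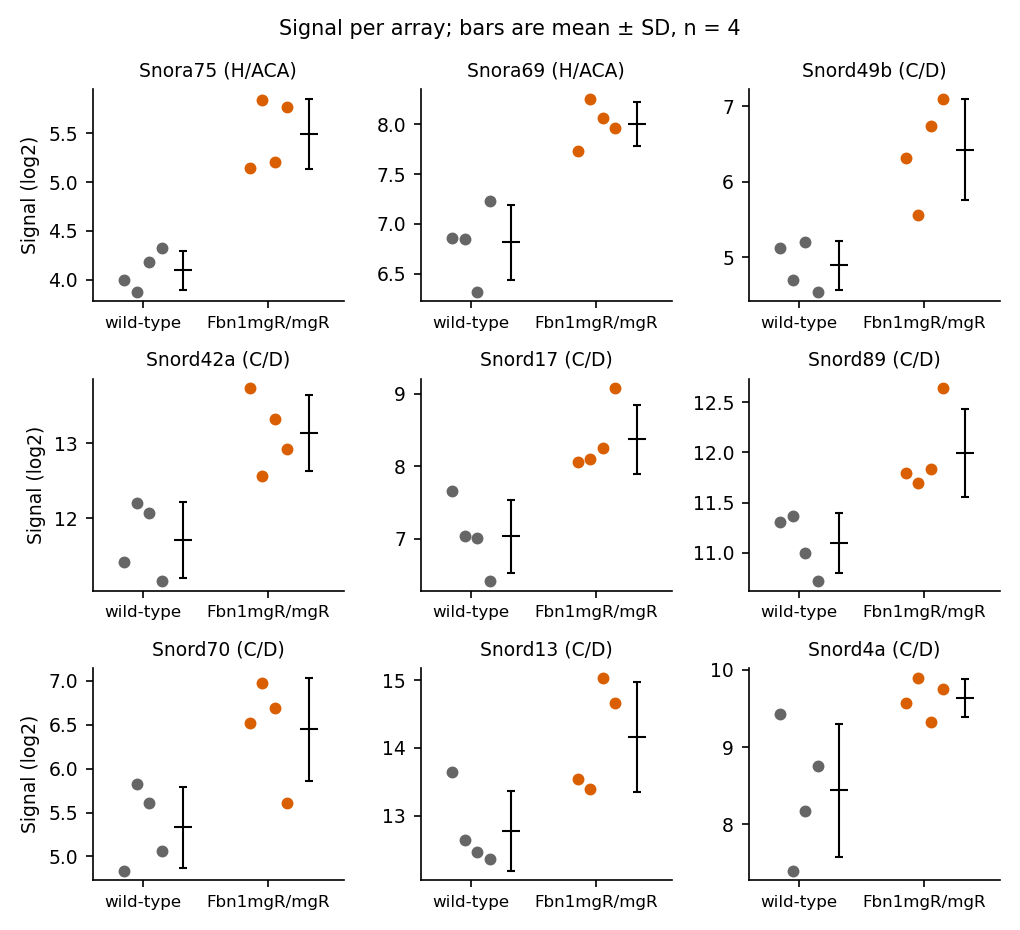
Signal on each array (y axis, log2; the axes do not start at 0) for 9 snoRNA genes with the smallest p, wild-type left and Fbn1mgR/mgR right. Points are arrays in the order of their names, and the bars beside them are the mean ± SD (n = 4). The genotypes do not overlap in the upper 6 panels, and do in the lower 3.

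A single member was lower at an unadjusted p under 0.05. Snord90, within the RNA-binding ubiquitin ligase gene Rc3h2, gave 5.60, 6.84, 6.14 and 7.0 on the mutant and 6.98, 7.21, 7.09 and 7.06 on the wild-type arrays. The wild-type values were tight (SD 0.10) and only mgR611 and mgR613 were clearly below them, so the fall of the mean, -0.69 ± 0.28 (SE; limma adjusted p = 0.314), missed the threshold.

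Some members varied widely within a genotype. Snord14e, within the heat shock protein gene Hspa8, ranged from 5.96 (WT676) to 11.02 (WT744) among wild-type arrays alone, and its difference was -0.48 ± 0.93 (SE). Snord82, within Ncl, was 7.0 on mgR611, 6.79 on mgR614 and 6.81 on WT742, but 4.85 to 5.48 on the other 5 arrays, a split that crosses the genotypes. The median pooled SD of tested members was 0.40, 0.32 for H/ACA and 0.46 for C/D genes, against 0.22 for all tested clusters. A member therefore needed a larger difference to pass than most clusters did. The 16 untested members had differences from -0.25 to 0.26. In all, 18 members lay at or below the dim limit, where a low signal does not show that the RNA is absent. These 18 include 2 tested members, which passed the filter only through their mutant mean. Both are counted among the members with a higher mutant mean.

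Members were then grouped by the gene whose span holds them, without regard to strand, which the table does not give. A spanning gene was found for 59 of 62 members, and 6 members had more than 1. A ribosomal protein gene among them decided the family first, then a translation factor gene. Members counted as noncoding only if all their spanning genes were noncoding. Snora78 (Rps2 and Snhg9) therefore counted under ribosomal protein genes, and Snord87 (Mcmdc2 and Snhg6) under other genes. The 19 members within ribosomal protein genes had 15 tested, of which 1 was called higher (Snora69; 6.67%, against 1.40% of all tested clusters). At an unadjusted p under 0.05 in limma, 5 were higher (33.3%, against 7.59%). Their median difference was 0.30, with 13 of 15 mutant means higher (86.7%, against 46.1% of all tested clusters). For the 9 members within noncoding genes, 0 of 6 tested were called, 2 were higher unadjusted in limma (33.3%) and the median was 0.31. For the 27 within other genes, 1 of 19 was called (Snora75, 5.26%) and the median was 0.28. Unadjusted in limma, 6 of the 19 were higher (31.6%) and 1 was lower (5.26%, against 6.68% of all tested clusters). The 4 members within translation factor genes gave a median of 0.11 over 3 tested, and the 3 members with no spanning gene, Snord13, Snord118 and Snord89, gave 0.90. None in these families was called. Higher at an unadjusted p under 0.05 in limma were 0 of 3 and 2 of 3. The ranges of the families overlap, except for these last families. The members within translation factor genes (-0.02 to 0.37) lie below those with no spanning gene (0.43 to 1.39). The families were not tested against each other.

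None of the tested spanning genes was called. Of 59, 35 had a cluster with 1 symbol and 32 were tested; limma called 0 in either direction. Without adjustment, at p under 0.05, 6 were higher (18.8%, against 7.59% of all tested clusters) and 2 lower (6.25%, against 6.68%). Their differences ran from -0.63 (Eef2) to 0.91 (Nop58), with a median of 0.08. Ncl gave 10.93, 10.78, 11.14 and 11.17 on the mutant and 10.74, 10.95, 10.76 and 10.75 on the wild-type arrays. These overlapped, with a difference of 0.21 ± 0.13 (SE; limma adjusted p = 0.544), beside 1.40 for Snora75 and 0.28 for Snord82 from the same gene. Rpl39 differed by 0.17 ± 0.16 (SE; limma adjusted p = 0.723), beside 1.19 for Snora69. The Rpl39 cluster had a mean signal of 7.99, against 18.07 for Rpl4 and 17.39 for Rps3a1, also ribosomal protein genes. Whether it follows the Rpl39 mRNA was not tested.

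The other spanning genes of named members that had a cluster of 1 symbol were spread on both sides of 0. Snx5, a sorting nexin of endosomes, differed by 0.59 ± 0.19 (SE; limma adjusted p = 0.206), beside 1.34 for Snord17. Nop58, itself a core protein of C/D particles, differed by 0.91, beside 1.12 for Snord70 and -0.23 for Snord11 from the same transcript. Rpsa (0.04), Snhg18 (0.10), Srcap (-0.13), Eef1b2 (-0.01) and Tpt1 (-0.01) had limma adjusted p between 0.758 and 0.983. The Tpt1 cluster gave only 5.80 to 5.88 over all arrays, and whether it follows the Tpt1 mRNA was not tested. The sign turned for Srcap without both brown fat arrays, and for Eef1b2 and Tpt1 when WT675 was left out. Hspa8 sat at the ceiling of the scale, 19.93, where no difference can be seen.

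In 28 pairs both the snoRNA gene and the spanning gene were tested, covering 26 snoRNA and 26 spanning genes. The snoRNA difference was above that of its spanning gene in 15 of 28 pairs. The median snoRNA difference was 0.12 over the pairs, where Snord71 and Snord91a each stand in more than 1. The median over the distinct spanning genes was 0.11. Snord49b, Snord42a, Snord4a, Snord13 and Snord89 are in no pair, since no tested spanning gene was available for them. Over all 46 tested members the median was 0.30. As a description across the 28 pairs, which share arrays and in part genes, Pearson's r of the differences was 0.35 and Spearman's rho 0.29. Without the pair of Snord14e and Hspa8, whose signal at the ceiling fixes its difference near 0, the count was 15 of 27, the medians 0.12 and 0.12, r 0.34 and rho 0.27. An exact two-sided permutation test over the 70 ways to assign the arrays compared the within-array gap between snoRNA and spanning gene. Snora75 with Ncl, Snora69 with Rpl39, and Snord23 with Nop53 reached the smallest p it can give, 0.0286, with the snoRNA signal, relative to its spanning gene, higher in the mutant by 1.19, 1.03 and 0.55. Adjusted over the 28 pairs, p was 0.267 for each of these 3, and no pair passed. With 4 arrays against 4, a pair can pass this adjustment only if most of the 28 reach the smallest p together. The adjusted test therefore cannot decide whether the gap of a given pair differs between genotypes, and no conclusion is drawn from it. In the pair of Snord23 with Nop53, Nop53 differed by -0.62 and Snord23 by -0.07.

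**Figure D4:**
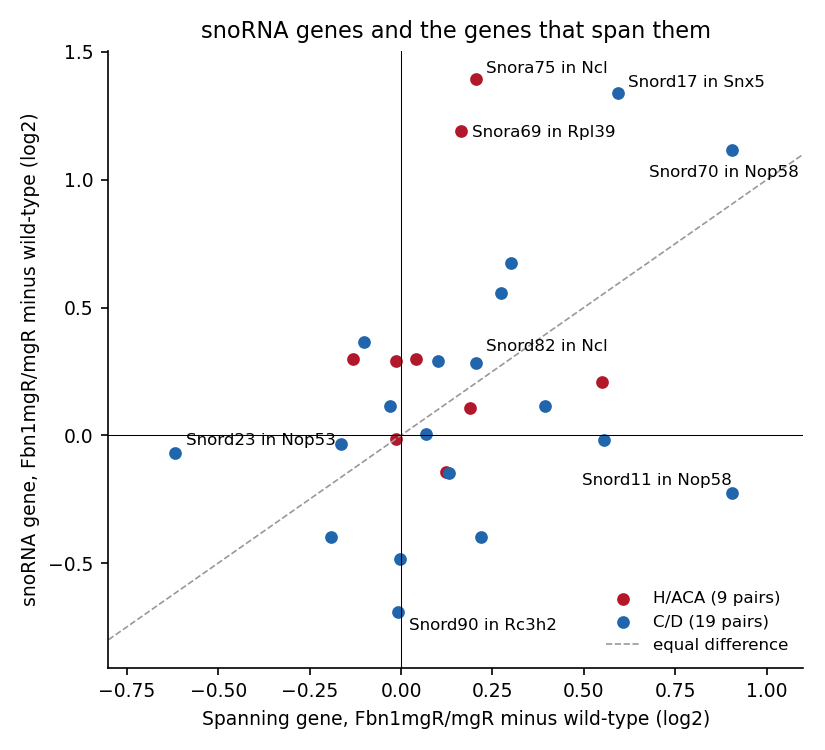
Difference of the snoRNA gene (y axis, Fbn1mgR/mgR minus wild-type, log2) against that of the gene spanning it (x axis, same scale) for the 28 tested pairs. Points are pairs, coloured by snoRNA class, and the dashed line marks equal differences. Snora75 and Snora69 lie above 1 on the y axis while Ncl (0.21) and Rpl39 (0.17) lie near 0 on the x axis, and Snord70 and Snord11 share the x value of Nop58.

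Where 1 gene spans 2 members, the members did not always move alike. In Rpl23a both differed by more than 1 (Snord42a 1.42, Snord4a 1.20). In Ncl and Nop58 one member did and the other did not. In 2410006H16Rik, Snord49b differed by 1.53 while Snord49a was too dim to test (0.11). Rpl3 holds Snord43 (0.27) and the dim Snord83b (0.12). An array signal cannot tell a mature snoRNA from an uncut intron that contains it.

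None of the proteins that build, mature or degrade snoRNAs was called. Among the H/ACA core proteins, Nhp2 came closest: 7.58, 7.50, 7.70 and 8.02 on the mutant and 6.98, 7.18, 7.04 and 7.06 on the wild-type arrays. The groups did not overlap, with a difference of 0.64 ± 0.14 (SE; limma adjusted p = 0.0584, between 0.0304 and 0.156 over the alternatives). The pseudouridine synthase Dkc1 (0.24), Gar1 (0.19) and Nop10 (0.14) differed less, with limma adjusted p between 0.443 and 0.743. Of the C/D core proteins, Nop58 gave 10.23, 9.66, 10.31 and 10.96 on the mutant and 9.21, 8.82, 9.63 and 9.88 on the wild-type arrays. These overlap, and the difference of 0.91 ± 0.31 (SE) had a limma adjusted p of 0.224. The methyltransferase Fbl differed by 0.12 (limma adjusted p = 0.805), and Nop56 and Snu13 were not analysed here.

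Of 10 measured assembly factors 0 were called (0 at an unadjusted p under 0.05 in limma), with a median difference of 0.12; the smallest p were those of Shq1 (0.18) and Nolc1 (0.24). Of 12 genes of small RNA processing and decay 0 were called (0 unadjusted in limma), with a median of -0.01. Parn (-0.26) and Exosc3 (0.19) had the smallest p. Of 7 genes of nonsense-mediated decay, which degrades many spliced noncoding snoRNA host transcripts, 0 were called (0 unadjusted in limma), with Smg9 (0.18) and Smg5 (0.11) first. Of 21 genes of RNA polymerase I and ribosomal RNA processing 0 were called and 1 was higher unadjusted in limma, Polr1e (0.27), followed by Wdr43 (0.27), with a median of 0.08.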

How the data were processed

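RNA of 8 aorta samples (4 per genotype, groups from the genotype in the labels) was measured on Clariom D arrays. The authors deposited normalized log2 signals, 1 value per transcript cluster and array, rounded to 2 decimals. They were made with the Transcriptome Analysis Console, per the submitters' processing notes; normalization method and genome build: not given in the sources used here. Members and gene lists were chosen with earlier results of these data known.

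Clusters with a mean above the median of all 65956 (4.01) were fitted with limma 3.58.1 in R 4.3.3 (lmFit, eBayes with an intensity trend), with no covariate, and p-values were adjusted over all 32957 tested (Benjamini-Hochberg, threshold 0.05). The fit was tested on simulated data. Tables and figures were made with Python 3.11.15, pandas 2.3.3 and matplotlib 3.10.9. Spanning genes and promoters come from RefSeq tables (GRCm38.p6). The table has no strand, so the planned match on strand was not made; all 62 members matched it. Brown fat and other markers came from lists of cell types.

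Named genes are those past the threshold, the 5 smallest p and 5 brightest per class, their spanning genes, the core proteins and the 2 smallest p of each pathway list. Other genes (Snord90, Snord14e, Snord82, Snord118, Snord23, Hspa8, Nop53, Eef2 and members sharing a spanning gene) were chosen after their values were seen. Alternatives covered the prior variance, array weights, filters, normalization, cluster choice, 2 covariates, thresholds and each array left out. A prior estimated over all clusters, a fit without mgR614 and WT676, and pairs without a gene at the ceiling were chosen after seeing the data.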

Additional observations from a re-analysis of the deposited data

Results flagged for a closer look

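In 152 groups of 4 arrays (76 members and named genes in both genotypes), 7 had an array apart from the other 3 by Dixon's criterion; chance alone marks about 1 group in 20. Snora41 was at 6.73 on WT676, against 7.9 to 8.0 on the other wild-type arrays. Snora68 was at 6.86 on mgR613, against 6.36 on all other mutant arrays. Snora78 was at 6.24 on mgR614, against 5.28 to 5.43. Snord35b was at 4.35 on mgR611, against 4.72 to 4.79. Snord89 was at 12.64 on mgR614, against 11.70 to 11.84. Ncl was at 10.95 on WT676, against 10.74 to 10.76. Tpt1 was at 5.81 on mgR614, against 5.82 on the others, which is the last decimal of the deposited values. Of the 7 values, 5 are from mgR614 or WT676, the arrays highest in brown fat markers; the part of brown fat in these values was not tested.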

How the results depend on the processing

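No paired analysis was possible because the genotypes share no replicate number. The count of members called higher, 2, was 1 with only clusters above the upper quartile, where Snora75 was too dim to be tested, 5 with only clusters of 1 symbol, which tests fewer clusters (Snord17, Snord42a and Snord49b were added), and 4 with the prior over all clusters (Snord42a and Snord49b were added). It was 5 at a threshold of 0.10, 1 at 0.01 and 0 without mgR614 and WT676, the arrays brightest in brown fat markers, a fit with fewer samples. It ranged from 1 to 2 with each array left out. With the lower quartile covariate, 1 spanning gene, Nop53, was called lower, against 0; the cause was not tested. Calls of lower members stayed at 0 in each alternative run, and calls of higher spanning genes did too. With each array left out, the median difference ranged from 0.11 to 0.29 for H/ACA and from 0.21 to 0.46 for C/D genes, and calls of lower members, higher and lower spanning genes from 0 to 0. Of 31 named genes, 6 changed sign in some alternative, none of them called in any. Quantile normalization and median centring each gave 3 members (Snord49b was added). The number of arrays and the dim signals of 18 members limit what can be detected.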
